A study of Mus musculus with 4 samples.

Results

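The genes described here are 7 that receive, make or remove adenosine: the receptor genes Adora1, Adora2a and Adora2b, the enzyme genes Nt5e, Adk and Ada, and the transporter gene Slc29a1. They were chosen by symbol, and all 7 are among the 25259 genes of the deposited table. Messenger RNA was sequenced from dorsomedial striatum (DMS) and dorsolateral striatum (DLS), cut out by laser capture from brains of 8-week-old C57BL/6 mice. The groups were 12 libraries of Foxp2hum/hum DMS, 11 of wild-type DMS, 12 of Foxp2hum/hum DLS and 11 of wild-type DLS. Foxp2hum/hum mice are homozygous for a version of Foxp2, a transcription factor gene linked to speech, that encodes human amino acids, and the labels name no treatment for any group. The study asks how this allele bears on the passage from declarative learning, tied to the DMS, to procedural learning, tied to the DLS.

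Adenosine is a breakdown product of ATP that acts on G protein-coupled receptors of the cell surface. The A1 receptor lowers cyclic AMP and damps transmitter release, and the A2a receptor raises cyclic AMP and in striatum sits mainly on the medium spiny neurons of the indirect pathway, where it opposes the D2 dopamine receptor. Caffeine blocks both receptors. Extracellular adenosine is formed from AMP by the ectoenzyme CD73, crosses the membrane through equilibrative transporters, and is removed by phosphorylation to AMP or deamination to inosine.

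Values are read counts divided by a size factor per library, called normalised reads below. The libraries held 16.79 to 41.01 M (mega) recovered reads, and mitochondrially encoded genes took 11.9% to 30.7% of these. Foxp2 itself averaged 1332 ± 193 normalised reads in Foxp2hum/hum DMS against 1337 ± 263 in wild-type DMS, and 1040 ± 221 in Foxp2hum/hum DLS against 1095 ± 202 in wild-type DLS (SD, n = 12, 11, 12 and 11). The allele changes the protein, so this level does not check the genotype labels. Markers of all medium spiny neurons (10 genes) summed to between 88281 and 204699.6 normalised reads in every library, and those of cortical projection neurons (6 genes) to between 113.6 and 1266. Libraries 72 (wild-type DMS) and 70 (wild-type DLS) had the lowest mitochondrial share of their groups, 11.9% and 18.2%. The wild-type differences of the members that passed between regions are also given without these libraries. No label names the animal behind a library, so p-values measure the spread between libraries, and tests between regions treat libraries as independent.

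On mm9 with GENCODE M1, Adora1 lies at chr1:136095800-136132008 on the minus strand, Adora2a at chr10:74779688-74797533 on the plus strand and Adora2b at chr11:62062486-62079955 on the plus strand. Nt5e lies at chr9:88222447-88266927 (plus), Adk at chr14:21871855-22267769 (plus), Ada at chr2:163552320-163575975 (minus) and Slc29a1 at chr17:45722149-45736555 (minus). By the deposited values, reads seem to have been counted over each gene from start to end without regard to strand, so a value can hold intronic reads and reads of an overlapping gene. The opposite-strand gene Mybph, which overlaps Adora1 over 2009 bases, had a mean equal to 42.47% of the Adora1 value. Gm10210, opposite Slc29a1 over 2258 bases, had a mean equal to 23.04% of the Slc29a1 value, and the largest overlap in the other members was 1.26%, in Adk.

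RefSeq promoters on GRCm38.p6, from 250 bases before to 50 after a listed start, matched 6 of the 7 genes, and Adora2a had no entry. The promoters of Nt5e and Slc29a1 are shown because these genes differed between the regions, and that of Adora1 because it is a receptor gene that did not pass. Capitals mark the GC box, GGGCGG or CCGCCC on the other strand, with overlapping matches run together.
Nt5e: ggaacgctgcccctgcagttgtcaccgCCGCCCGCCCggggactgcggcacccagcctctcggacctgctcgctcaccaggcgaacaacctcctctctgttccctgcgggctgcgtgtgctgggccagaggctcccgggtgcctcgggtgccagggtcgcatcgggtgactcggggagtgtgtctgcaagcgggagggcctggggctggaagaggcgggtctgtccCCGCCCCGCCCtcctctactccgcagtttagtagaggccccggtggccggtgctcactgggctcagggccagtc
Slc29a1: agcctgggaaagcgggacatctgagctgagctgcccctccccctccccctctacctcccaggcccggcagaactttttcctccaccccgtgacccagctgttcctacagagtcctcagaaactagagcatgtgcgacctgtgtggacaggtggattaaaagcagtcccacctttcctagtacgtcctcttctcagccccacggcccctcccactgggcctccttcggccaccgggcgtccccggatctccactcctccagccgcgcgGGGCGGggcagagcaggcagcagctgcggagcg
Adora1: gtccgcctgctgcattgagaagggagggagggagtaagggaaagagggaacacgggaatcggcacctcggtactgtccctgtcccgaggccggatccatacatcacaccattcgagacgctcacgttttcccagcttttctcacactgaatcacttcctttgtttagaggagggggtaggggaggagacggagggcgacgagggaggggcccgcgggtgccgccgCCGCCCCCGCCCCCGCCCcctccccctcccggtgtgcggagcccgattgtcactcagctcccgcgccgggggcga
These windows are chr9:88327359-88327658 (plus strand) for Nt5e, chr17:45599569-45599868 (minus) for Slc29a1, the outermost of 8 listed starts, and chr1:134235408-134235707 (minus) for Adora1, the outermost of 2. Nt5e held 4 GC boxes, Slc29a1 1 and Adora1 3, and Adora2b, Adk and Ada held 6, 4 and 2. A GC box occurred in 35.7% of all 32851 promoters of that length. The 6 windows had a GC content of 61.67% to 71%, against a median of 52.67% over all promoters. The core of the cyclic AMP response element, TGACG (20.8% of all promoters) occurred once, in Adk, where it abuts a GC box. The forkhead motif TGTTTAC (3.65%), the E-box CACGTG (7.15%) and the TATA box TATAAA (13.6%) had no match on either strand in these windows.

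Divided by exon length, the A2a receptor gene stood above the other members in every group. Adora2a had 1909 ± 255 normalised reads per exon kb in Foxp2hum/hum DMS, 1986 ± 356 in wild-type DMS, 3043 ± 351 in Foxp2hum/hum DLS and 3239 ± 450.0 in wild-type DLS (SD, n = 12, 11, 12 and 11, here and below). Adora1 followed with group means of 386 to 486 per exon kb, then Adk with 296 to 328. With the overlapping Mybph subtracted, chosen after seeing the data, Adora1 had 219.8, 246, 258 and 283.5 per exon kb in these groups, below Adk in each. Reads in the shared bases may count for both genes, so this subtraction can take out reads of Adora1 itself. These values are therefore not a corrected level, and the order of Adora1 and Adk is not settled by them. Nt5e (57.6 to 112) and Slc29a1 (54.9 to 84.8) came next, then Adora2b (19.97 to 26.8) and Ada (4.60 to 7.71). Nt5e and Slc29a1 overlapped within 1 SD in every group, and their order was turned round in wild-type DMS. As deposited, Adora1 and Adk overlapped within 1 SD in both Foxp2hum/hum groups, and Adora2b and Ada did in wild-type DMS. The place of Adk rests on the length used, since its span of 395.9 kb holds 1.70 kb of exon: per kb of span it had 1.31 normalised reads in Foxp2hum/hum DMS, below Slc29a1 (15.3), Nt5e (4.90) and Adora2b (2.24).

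**Figure D1:**
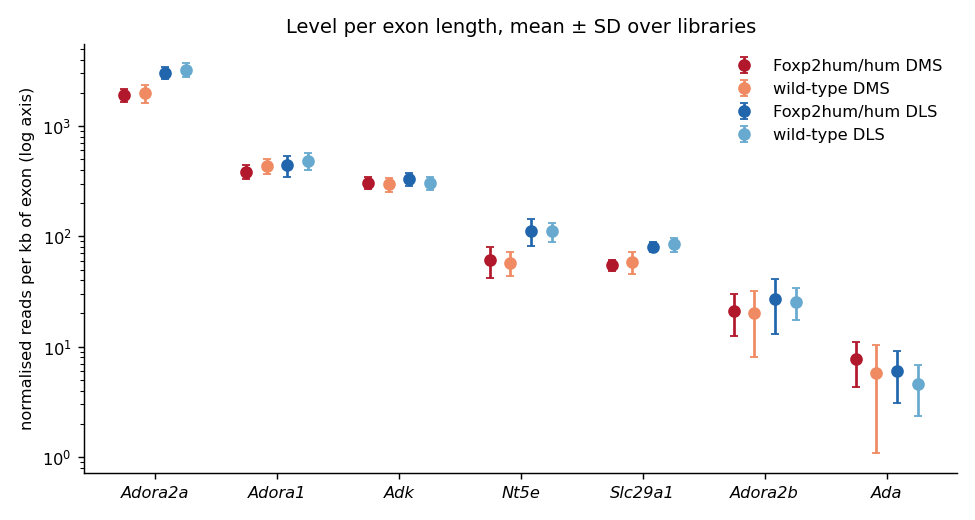
Mean level of each gene per kb of exon on a log axis, with error bars of 1 SD over the libraries of each of the 4 groups (Foxp2hum/hum DMS, wild-type DMS, Foxp2hum/hum DLS, wild-type DLS). Adora2a lies between 1909 and 3239 normalised reads per exon kb and Ada between 4.60 and 7.71.

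The first comparison was between the regions. In both genotypes Adora2a, Nt5e and Slc29a1 were lower in DMS than in DLS, by 1.45-fold to 1.94-fold, and the other 4 members did not pass. The test was limma on log2(value + 1) over 19561 genes with Benjamini-Hochberg adjustment, and a gene passed at an adjusted p under 0.05. In Foxp2hum/hum, 3 of 7 members were lower and 0 higher, where 8.82% of all tested genes were lower and 9.33% higher. In wild-type the same 3 were lower and 0 higher, with a background of 8.72% lower and 8.54% higher. The median log2 difference over the 7 was -0.32 in Foxp2hum/hum, against 0.02 over all tested genes, and -0.53 in wild-type, against 0.01. With library number as a covariate, chosen after seeing the data, the same 3 passed in both genotypes. Without libraries 70 and 72 the wild-type log2 differences of these 3 were -0.73, -0.96 and -0.61. In pieces of tissue, fewer cells of a type and less RNA per cell cannot be told apart.

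Adora2a, the A2a receptor gene, had a lowest, median and highest value of 3772, 4852 and 6163 normalised reads in Foxp2hum/hum DMS, against 6865, 7450 and 10063 in Foxp2hum/hum DLS. In wild-type the values were 3726.5, 4958 and 6757 in DMS, against 6481.5, 8150.0 and 9896 in DLS. Every Foxp2hum/hum DMS library lay below every Foxp2hum/hum DLS library, and in wild-type 10 of 11 DMS libraries did so. The share of all tested genes that separate in this way was not computed, here or below. The log2 difference, DMS minus DLS, was -0.68 ± 0.08 (SE) in Foxp2hum/hum (adjusted p = 1.43e-08) and -0.71 ± 0.09 in wild-type (adjusted p = 1.23e-08).

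Adora1, the A1 receptor gene, ranged from 1663 to 2855 normalised reads in Foxp2hum/hum DMS (median 2209.9), against 1680.4 to 3734 in Foxp2hum/hum DLS (median 2673). In wild-type it ranged from 1850.4 to 3161 in DMS (median 2436), against 2100.2 to 3494 in DLS (median 2852). The regions overlapped in both genotypes, and the difference did not pass, at -0.18 (95% interval -0.39 to 0.02, adjusted p = 0.234) in Foxp2hum/hum and -0.16 (-0.37 to 0.06, adjusted p = 0.357) in wild-type. Adora2b, the low-affinity A2b receptor gene, had 6 to 133 reads per library before scaling. It averaged 39.2 ± 16.4 normalised reads in Foxp2hum/hum DMS, against 49.5 ± 25.7 in Foxp2hum/hum DLS, and 36.8 ± 22.1 in wild-type DMS and 47.3 ± 15.0 in wild-type DLS. Its interval was wide, from -0.93 to 0.29 in Foxp2hum/hum and from -1.17 to 0.10 in wild-type, and neither difference passed (adjusted p = 0.534 and 0.272). With limma array weights, which weight libraries by their spread, the wild-type difference of Adora2b passed, at -0.79 (adjusted p = 0.0374).

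Nt5e encodes CD73, the ectoenzyme that turns AMP into adenosine. Its lowest, median and highest values were 111.2, 210.6 and 310.9 normalised reads in Foxp2hum/hum DMS, against 258.6, 424.4 and 628.5 in Foxp2hum/hum DLS. In wild-type they were 146.6, 202.5 and 290.3 in DMS, against 279.7, 412 and 498.7 in DLS. Of the DMS libraries, 8 of 12 in Foxp2hum/hum and 10 of 11 in wild-type lay below every DLS library of their genotype. Nt5e had the largest regional difference of the 3 members that passed, at -0.90 ± 0.15 (SE, adjusted p = 1.11e-05) in Foxp2hum/hum and -0.96 ± 0.16 (adjusted p = 8.16e-06) in wild-type.

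Slc29a1 encodes the equilibrative nucleoside transporter ENT1, through which adenosine passes in either direction. Its lowest, median and highest values were 167.3, 221.3 and 259.7 normalised reads in Foxp2hum/hum DMS, against 276.6, 314 and 371.6 in Foxp2hum/hum DLS. In wild-type they were 168.1, 225.3 and 321 in DMS, against 250.2, 334.5 and 410.3 in DLS. The regions did not overlap in Foxp2hum/hum, and 8 of 11 wild-type DMS libraries lay below every wild-type DLS library. The difference was -0.55 ± 0.09 (SE, adjusted p = 1.34e-05) in Foxp2hum/hum and -0.54 ± 0.10 (adjusted p = 4.43e-05) in wild-type. With the overlapping Gm10210 subtracted, an alternative chosen after seeing the data, it was -0.57 (adjusted p = 2.11e-05) and -0.48 (adjusted p = 0.0005). This subtraction can also take out reads of Slc29a1 itself.

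Both enzymes that remove adenosine overlapped between the regions. Adk, adenosine kinase, averaged 518 ± 63.9 normalised reads in Foxp2hum/hum DMS, against 558 ± 75.0 in Foxp2hum/hum DLS, and 504 ± 73.2 in wild-type DMS and 513 ± 68.4 in wild-type DLS. Its regional difference was -0.10 (95% interval -0.27 to 0.06, adjusted p = 0.426) in Foxp2hum/hum and -0.03 (-0.20 to 0.14, adjusted p = 0.874) in wild-type. Ada, adenosine deaminase, had 0 to 37 reads per library, with 1 wild-type DMS library at 0. It averaged 15.4 ± 6.76 normalised reads in Foxp2hum/hum DMS, against 12.15 ± 6.02 in Foxp2hum/hum DLS, and 11.5 ± 9.37 in wild-type DMS and 9.21 ± 4.54 in wild-type DLS. At this depth its intervals, -0.41 to 1.08 in Foxp2hum/hum and -0.81 to 0.74 in wild-type, leave a difference of either sign undetected.

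**Figure D2:**
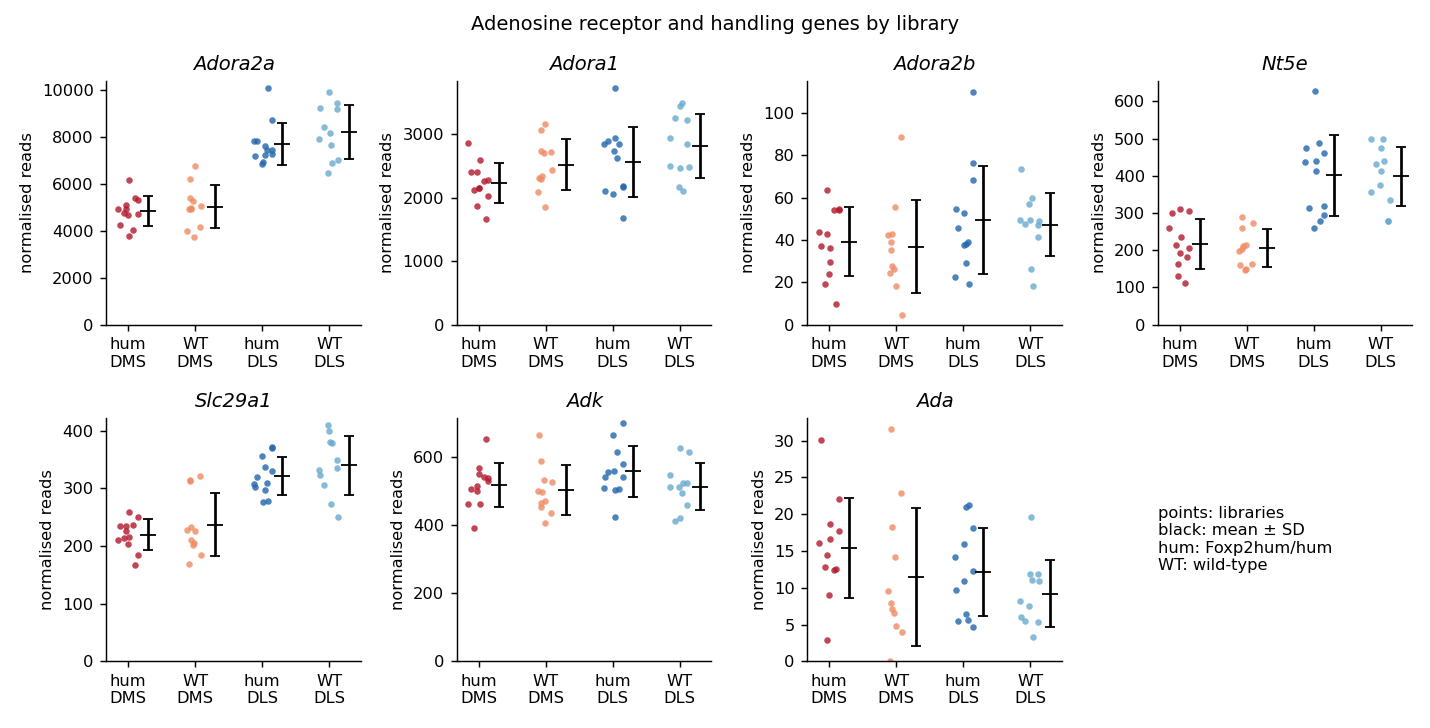
Normalised reads of each gene in every library (points), with the mean and SD of each group in black, for Foxp2hum/hum (hum) and wild-type (WT) DMS on the left and DLS on the right. Adora2a, Nt5e and Slc29a1 are lower in DMS, with no overlap for Adora2a and Slc29a1 in Foxp2hum/hum, and Ada reaches 0 in 1 wild-type DMS library.

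Markers of other cells moved with region, where 8.54% to 9.33% of all tested genes passed in each direction in each genotype. Of 9 tested choroid plexus and ependyma genes 7 were higher in DMS in each genotype, with summed levels of 2625 to 11549.7 normalised reads in Foxp2hum/hum DMS against 1659 to 2328 in Foxp2hum/hum DLS, and 2382.5 to 16411 in wild-type DMS against 1487 to 2499.5 in wild-type DLS. Of 7 immature neuron genes 6 were higher in DMS in each genotype. With the choroid plexus gene Ttr as a covariate, the log2 differences in Foxp2hum/hum and wild-type were -0.72 and -0.75 for Adora2a, -0.78 and -0.88 for Nt5e and -0.54 and -0.53 for Slc29a1, with adjusted p up to 0.0035. None of the 9 microglia or 9 endothelial and mural markers passed in either genotype, and 2 of 9 astrocyte markers were higher and 2 lower in each. Of 6 leptomeningeal fibroblast genes 2 were lower in DMS in Foxp2hum/hum and 1 in wild-type, and 0 were higher. The median log2 difference of this list was -0.28 in Foxp2hum/hum and 0.09 in wild-type. Col1a2 and Igf2 of this list had higher means in DMS in both genotypes without passing. Dcn, the decorin gene, averaged 46.1 normalised reads in DMS and 79 in DLS of Foxp2hum/hum, and 40.3 in DMS and 86 in DLS of wild-type. The summed leptomeningeal list ran from 343.9 to 758 in Foxp2hum/hum DMS, 354.5 to 1206 in wild-type DMS, 268.5 to 691 in Foxp2hum/hum DLS and 400 to 714 in wild-type DLS. Of 9 oligodendrocyte markers 0 passed in Foxp2hum/hum and 2 were higher in wild-type, and of 5 tested cortical markers 0 passed in Foxp2hum/hum and 1 was higher in wild-type. Of 10 markers of all medium spiny neurons 6 were lower in DMS in each genotype, with a median log2 difference of -0.36 in Foxp2hum/hum and -0.40 in wild-type. Their sum ran from 88659.6 to 122503 in Foxp2hum/hum DMS against 139736 to 178890.5 in Foxp2hum/hum DLS, and from 88281 to 147816 in wild-type DMS against 140712 to 204699.6 in wild-type DLS. The part of this in the results for Adora2a, Nt5e and Slc29a1 was not tested.

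Adora2a was set against other striatal genes of the same library, and Nt5e against Entpd1 and Adk. These 6 gene ratios and 12 tests were chosen after seeing the data. The log2 difference of a ratio follows from those of its numerator and denominator. The ratio tests therefore restate the differences of the single genes and are not separate findings. The ratio of Adora2a to Drd2, the D2 dopamine receptor gene of the same neurons, was 1.04 ± 0.15 in DMS and 1.03 ± 0.15 in DLS of Foxp2hum/hum, and 0.991 ± 0.116 in DMS and 1.04 ± 0.11 in DLS of wild-type. Neither regional difference in this ratio passed a two-sided permutation test (adjusted p = 0.89 and 0.35), and Drd2 alone was lower in DMS, with log2 differences of -0.69 and -0.64 and no overlap in either genotype. Penk, the proenkephalin gene that also marks indirect-pathway neurons, averaged 25683 normalised reads in DMS and 25012 in DLS of Foxp2hum/hum, and 25721 in DMS and 25912 in DLS of wild-type, and did not pass in either (adjusted p = 0.751 and 0.975). The ratio of Adora2a to Penk was 0.190 ± 0.029 in DMS and 0.316 ± 0.066 in DLS of Foxp2hum/hum (adjusted p = 8e-05), and 0.196 ± 0.035 in DMS and 0.321 ± 0.065 in DLS of wild-type (adjusted p = 0.00012). The other indirect-pathway markers Gpr6, an orphan receptor gene, and Sp9, a transcription factor gene, did not pass. The 5 measured markers of these neurons include Adora2a itself, and besides it only Drd2 was lower in DMS. Of 6 direct-pathway markers 3 were lower in DMS in each genotype, among them the D1 dopamine receptor gene Drd1a at -0.30 and -0.35, and 1 was higher, the prodynorphin gene Pdyn at 1.60 and 1.31.

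Adora2a was also set against the A1 receptor gene, whose value can hold reads of the overlapping Mybph. The ratio of Adora2a to Adora1 was 2.22 ± 0.52 in DMS and 3.13 ± 0.80 in DLS of Foxp2hum/hum (adjusted p = 0.0036), and 2.004 ± 0.208 in DMS and 2.95 ± 0.33 in DLS of wild-type (adjusted p = 8e-05). Against Ppp1r1b, the gene of the cyclic AMP target DARPP-32, the ratio did not differ detectably, at 0.167 ± 0.021 in DMS and 0.181 ± 0.027 in DLS of Foxp2hum/hum (adjusted p = 0.2) and 0.170 ± 0.034 in DMS and 0.188 ± 0.030 in DLS of wild-type (adjusted p = 0.24). Nt5e was lower in DMS also relative to Entpd1, which encodes CD39, the ectoenzyme that yields the AMP CD73 uses: the ratio was 0.427 ± 0.119 in DMS and 0.599 ± 0.185 in DLS of Foxp2hum/hum (adjusted p = 0.016), and 0.429 ± 0.127 in DMS and 0.597 ± 0.185 in DLS of wild-type (adjusted p = 0.034). A pseudogene inside Entpd1 had a mean equal to 36.75% of its value. The ratio of Nt5e to Adk was 0.428 ± 0.143 in DMS and 0.732 ± 0.224 in DLS of Foxp2hum/hum (adjusted p = 0.002), and 0.414 ± 0.097 in DMS and 0.790 ± 0.192 in DLS of wild-type (permutation p = 2e-05, the smallest these permutations can give, adjusted p = 8e-05).

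**Figure D3:**
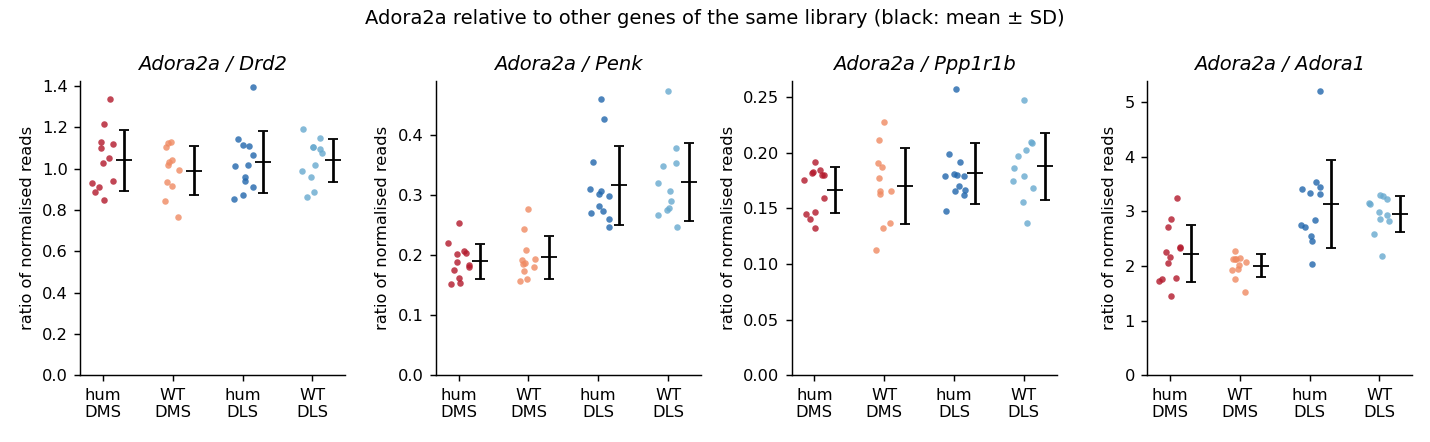
Ratio of the Adora2a value to that of Drd2, Penk, Ppp1r1b and Adora1 in every library (points), with group means and SD in black. The group means of the ratio to Drd2 lie between 0.991 and 1.04, and those of the ratio to Penk are 0.190 and 0.196 in DMS against 0.316 and 0.321 in DLS.

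The second comparison asked whether the humanised allele altered these genes. No member passed in either region, where 0% of all tested genes passed in DMS and 0% in DLS. At an unadjusted p under 0.05, limma had 700 genes in DMS (3.58% of those tested) and 843 in DLS (4.31%), with no member among them. DESeq2 called 0 genes in DMS and 3 in DLS, none of them a member, and edgeR called 0 in each. For Adora2a the log2 difference, Foxp2hum/hum minus wild-type, was -0.05 (95% interval -0.22 to 0.13, adjusted p = 0.955) in DMS and -0.09 (-0.26 to 0.09, adjusted p = 0.846) in DLS.

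Adora1 had lower group means in Foxp2hum/hum in both regions, 2233 ± 316 against 2518 ± 399 normalised reads in wild-type DMS and 2568 ± 552 against 2813 ± 499.5 in wild-type DLS. The libraries overlapped, and the differences of -0.17 (-0.38 to 0.04, adjusted p = 0.955) and -0.14 (-0.35 to 0.07, adjusted p = 0.843) did not pass. The mitochondrial share, which had r = -0.48 with Adora1 within groups, was 22.4% ± 3.84 in Foxp2hum/hum against 20.2% ± 4.16 in wild-type DMS, and 24.8% ± 2.87 in Foxp2hum/hum against 22.7% ± 3.61 in wild-type DLS, and its part was not tested. The largest difference was that of Ada in DMS, 0.70 (-0.06 to 1.46, unadjusted p = 0.0695, adjusted p = 0.955), a gene of few reads. Without wild-type DMS library 65, in which Ada was at 0, this difference was 0.38. Without wild-type DMS library 72 it was 0.885, and without Foxp2hum/hum DMS library 49 it was 0.879. For Nt5e the differences were 0.05 (-0.27 to 0.36) in DMS and -0.01 (-0.33 to 0.30) in DLS, for Slc29a1 -0.08 (-0.28 to 0.11) and -0.07 (-0.27 to 0.12), and for Adk 0.04 (-0.12 to 0.21) and 0.12 (-0.05 to 0.29). Adora2b, with 0.20 (-0.43 to 0.83) and -0.01 (-0.64 to 0.61), had the widest intervals after Ada. As ratios, the intervals for Adora2a ran from 0.857 to 1.09 in DMS and from 0.836 to 1.06 in DLS, and those for Ada from 0.960 to 2.76 and from 0.745 to 2.14.

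The third comparison was the interaction, the regional difference in Foxp2hum/hum minus that in wild-type. No member passed, with adjusted p = 1 for each of the 7, and 0% of all tested genes did. In limma 321 genes (1.64% of those tested) had an unadjusted p under 0.05, and edgeR and DESeq2 called 0 each. The interaction was 0.04 (-0.21 to 0.28) for Adora2a, 0.06 (-0.38 to 0.51) for Nt5e and -0.01 (-0.29 to 0.26) for Slc29a1.

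**Figure D4:**
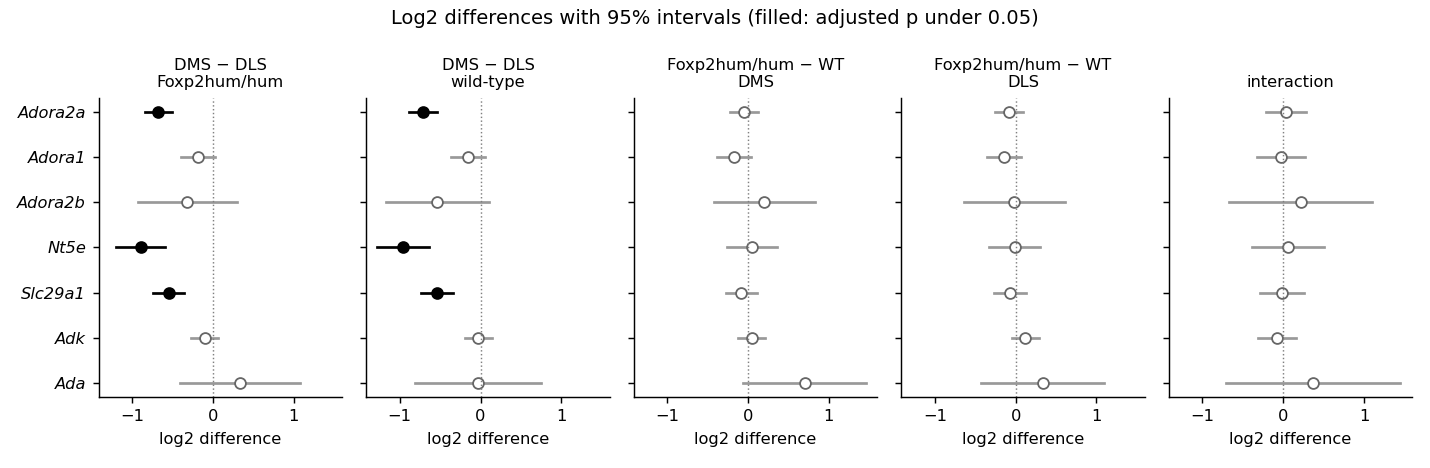
Log2 differences (points) with 95% intervals (lines) for the 7 genes in the 2 regional contrasts, the 2 genotype contrasts and the interaction, filled where the adjusted p was under 0.05. Filled points appear for Adora2a, Nt5e and Slc29a1 in the regional contrasts, between -0.96 and -0.54, and nowhere else.

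The wider purine list of 36 genes, of which 35 were in the table and 31 tested, moved both ways between the regions. In Foxp2hum/hum 6 were higher and 4 lower in DMS, with a median of -0.06. Over all tested genes 9.33% were higher and 8.82% lower there, with a median of 0.02. In wild-type 4 were higher and 4 lower, with a median of 0.08, against 8.54% higher, 8.72% lower and a median of 0.01 over all tested genes. The largest difference was that of Ak5, an adenylate kinase gene of brain, which averaged 559 normalised reads in DMS and 142 in DLS of Foxp2hum/hum (log2 2.03 ± 0.14 SE, adjusted p = 4.11e-16), and 662 in DMS and 157 in DLS of wild-type (2.11 ± 0.15, adjusted p = 5.46e-16).

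The ecto-ATPase gene Entpd2 was higher in DMS, by 0.46 ± 0.13 in Foxp2hum/hum (adjusted p = 0.00763) and 0.72 ± 0.13 in wild-type (adjusted p = 6.12e-05), whereas Entpd1 was lower, at -0.41 ± 0.09 (adjusted p = 0.000685) and -0.49 ± 0.10 (adjusted p = 0.000119). The pannexin genes also moved in opposite directions: Panx1 was higher by 0.41 and 0.36, and Panx2 was lower, at -0.51 and -0.41, in Foxp2hum/hum and wild-type. Nt5c1a, a cytosolic AMP nucleotidase gene with group means of 5.135 to 20.8 normalised reads, was higher by 1.72 and 1.86. Ahcyl1, related to the hydrolase that frees adenosine from S-adenosylhomocysteine, was lower, at -0.36 and -0.35, and Ak4, a mitochondrial adenylate kinase gene, at -0.40 and -0.46. The concentrative nucleoside transporter gene Slc28a3 (0.71, adjusted p = 0.0276) and the purine nucleoside phosphorylase gene Pnp (0.30, adjusted p = 0.0318) passed in Foxp2hum/hum and not in wild-type (0.09 and 0.23, adjusted p = 0.848 and 0.148), with an interaction that did not pass for either (adjusted p = 1). The A3 receptor gene Adora3, with group means of 18.02 to 22.18 normalised reads, did not pass in either genotype. A second entry named Adora3, overlapping it over 38022 bases, had a mean equal to 103.9% of its value. Reads of these entries cannot be told apart. None of the 31 passed between genotypes.

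Of 17 genes for G proteins and effectors of these receptors, 10 were lower and 4 higher in DMS in Foxp2hum/hum (median -0.32), and 10 lower and 3 higher in wild-type (median -0.33). Over all tested genes 8.82% were lower and 9.33% higher in Foxp2hum/hum (median 0.02), and 8.72% lower and 8.54% higher in wild-type (median 0.01). Gnai1, for an inhibitory G protein subunit of the kind that A1 receptors use, was higher, by 0.87 ± 0.09 (SE, adjusted p = 6.12e-11) in Foxp2hum/hum and 0.83 ± 0.09 (adjusted p = 9.63e-10) in wild-type. Gnai2, of the same family, was higher by 0.37 and 0.41. Gnao1, also of this family, had lower means in DMS. These were 9128 against 12423 normalised reads in Foxp2hum/hum and 10262 against 13810 in wild-type. Gnal, for the stimulatory subunit that couples A2a receptors to adenylyl cyclase in striatum, was lower, at -0.45 ± 0.10 (adjusted p = 0.000644) in Foxp2hum/hum and -0.48 ± 0.10 (adjusted p = 0.000493) in wild-type. Gnas, for another stimulatory subunit, had higher means in DMS. These were 8563 against 7530 normalised reads in Foxp2hum/hum and 8410 against 7599 in wild-type. Ppp1r1b was lower, at -0.56 in both genotypes, and the phosphodiesterase genes Pde1b, at -0.42 and -0.45, and Pde10a, at -0.61 and -0.66, were lower too. The striatal adenylyl cyclase gene Adcy5 had -0.32 and -0.33 and did not pass (adjusted p = 0.0789 and 0.0845). Ppp1r1b, Pde10a and Adcy5 are also among the 10 markers of all medium spiny neurons. None of the 17 passed between genotypes.

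**Figure D5:**
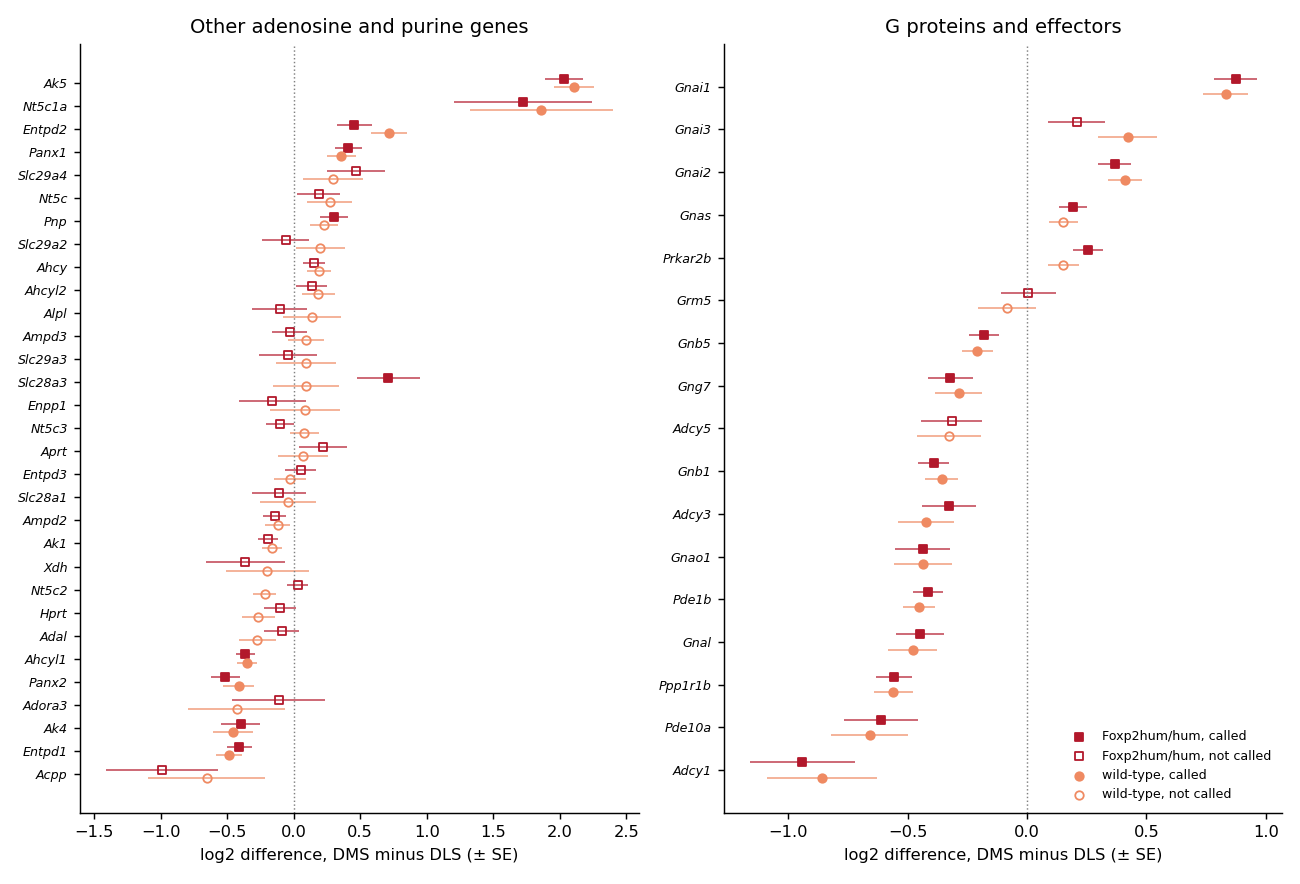
Log2 difference, DMS minus DLS, with its SE for the tested genes of the purine list (left) and of the G protein and effector list (right), in Foxp2hum/hum (squares) and wild-type (circles), filled where the adjusted p was under 0.05. Ak5 lies farthest to the right, at 2.03 and 2.11, and Adcy1 farthest to the left among the effectors, at -0.94 and -0.86.

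Across the 46 libraries, with group means removed, 14 pairs of genes were compared, the 10 among the 5 members with means of at least 50 and 4 of Adora2a with neuron markers, these 4 chosen after seeing the data. The permutations treat the libraries of a group as exchangeable. Adora1 and Adk varied in opposite directions, with Pearson's r = -0.58 and Spearman's rho = -0.612 (permutation p = 3e-05 for each, adjusted p = 0.00042). The r was -0.55 without the 2 libraries farthest from the Adora1 median, and -0.564, -0.431, -0.689 and -0.611 in Foxp2hum/hum DMS, wild-type DMS, Foxp2hum/hum DLS and wild-type DLS. Both genes also followed the library number of the table's header, with r = 0.52 for Adora1 and -0.49 for Adk. The r with library number was 0.39 for Adora2a, -0.37 for Nt5e and 0.15 for Slc29a1. The permutation p-values do not allow for such a trend. With a linear trend on library number removed within each group, the r of Adora1 and Adk was -0.38, and -0.56, -0.19, -0.55 and -0.01 in the 4 groups. With the trend removed, the pooled relation therefore did not hold in wild-type DLS and was weak in wild-type DMS. As deposited, r was -0.302 in Foxp2hum/hum DMS without library 64 and -0.252 in wild-type DMS without library 93. No label gives the flow cell of a library. Adora2a varied with Drd2, with r = 0.542 and rho = 0.482 (permutation p = 0.00022 and 0.00132, adjusted p = 0.00154 and 0.00924), and r was 0.435 without the 2 farthest libraries. Within groups that r was 0.326, 0.725, 0.327 and 0.702 in the same order. It was 0.0981 in Foxp2hum/hum DMS without library 87, and -0.0942 in Foxp2hum/hum DLS without library 92. With the trend removed the r of the pair was 0.39. Adora2a and Penk had r = 0.104 and rho = 0.0871 (permutation p = 0.462 and 0.566, adjusted p = 0.719 and 0.716), and none of the other pairs passed. As a description, the mitochondrial share of a library had r = -0.48 with Adora1, -0.38 with Nt5e, 0.22 with Adk, -0.04 with Adora2a and -0.09 with Slc29a1, and its part in these relations was not tested.

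The genes most like each member were named by the same group-centred r over 46 libraries, as a description. For Adora1 they included Lphn1 (0.946), the gene of a latrophilin adhesion receptor, and Camta2 (0.943), a transcription activator gene, with r of at least 0.91 within every group. For Adora2a they were the sialyltransferase gene St8sia3 (0.724), the purinergic receptor gene P2ry12 (0.711), which also stands in the microglia list, and the cadherin gene Cdh9 (0.709). Within groups these r ran from 0.39 to 0.90, from 0.61 to 0.85 and from 0.45 to 0.86. For Nt5e they were Adipor2 (0.810), an adiponectin receptor gene, Tsc22d1 (0.740), a transcriptional regulator gene, and the kinase gene Sgk1 (0.710), with r of 0.52 to 0.89 within groups. For Adk they were Tctex1d2 (0.775), the cathepsin gene Ctsl (0.743) and the small GTPase gene Rap1a (0.740), with r of 0.61 to 0.94 within groups. For Slc29a1 the highest r was 0.557, with the histone pseudogene Hist2h3c2-ps, and it ran from -0.30 to 0.83 within groups.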

How the data were processed

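Per the submitters' processing notes, reads were processed with TopHat 1.4.1, bedtools and DESeq on mm9. The values the authors deposited are a normalised signal, read counts divided by 1 size factor per library. Per the series' design text, libraries were indexed, pooled and run on 3 flow cells, and per the labels' protocols 15 ng of total RNA entered each. Each value was a whole multiple of what 1 read was worth in its library (tolerance 0.01 reads), and reads were recovered from this. The 46 libraries were grouped by the table's header. Of the genes, 25023 were found in GENCODE M1. Of 299 genes nested in introns with a mean of at least 500 reads, 209 of them on the opposite strand, 0 exceeded their host in any library.

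The 19561 genes with a mean value of at least 10, all 7 members among them, entered limma 3.58.1 (R 4.3.3) as log2(value + 1) (4 group means, trend, two-sided, Benjamini-Hochberg). Ratios and correlations used 100000 permutations of libraries, within groups for correlations. The procedure was tested on simulated data. Alternatives included edgeR 4.0.16 and DESeq2 1.42.0 on recovered reads, other pseudocounts, filters and covariates, and leaving out each library. The members and lists were chosen with earlier results of these data known. Named genes are the members, genes of the purine and G protein lists that passed (at most 8 per list and contrast, by smallest adjusted p), the 3 genes most like each member with a mean of at least 50, Foxp2, overlapping genes and cell type markers. Adora3, Adcy5 and Pnp fall outside this rule and were named after their values were seen. Gnao1 and Gnas were also named after their values were seen. Some genes that this rule gives are not reported here. Intervals cover the spread between libraries only. Promoter sequences are from RefSeq.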

Additional observations from a re-analysis of the deposited data

How the results depend on the processing

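Adora2a, Nt5e and Slc29a1 passed in both genotypes under each of 15 settings and with each of the 46 libraries left out. Over the settings the log2 difference, DMS minus DLS, ran from -0.72 to -0.64 in Foxp2hum/hum and from -0.75 to -0.70 in wild-type for Adora2a, from -0.94 to -0.78 and from -0.96 to -0.85 for Nt5e, and from -0.57 to -0.53 and from -0.61 to -0.48 for Slc29a1. With libraries left out in turn the count of members that passed was 3 in both genotypes for region and 0 for genotype and interaction. Array weights added Adora2b in wild-type, for 4 of 7. Of 2118 recomputed member values, 0 lost a call and 0 that had passed changed sign, while 71 changes of sign were in differences that had not passed, in 13 of the 35 results. Adora2b and Ada fell out under a mean of at least 50. No paired analysis was possible because the labels number no replicates and tie no library to an animal. Depth limits Ada (median 11.5 reads) and Adora2b (median 42 reads).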

Other observations

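Within groups, Adora1 and Adora2a had r = -0.419 in DMS (n = 12) and 0.0515 in DLS (n = 12) of Foxp2hum/hum, against 0.791 in DMS (n = 11) and 0.741 in DLS (n = 11) of wild-type. With each library left out in turn, r ran from -0.551 to -0.286 in DMS and from -0.162 (without library 92) to 0.367 (without library 60) in DLS of Foxp2hum/hum, against 0.694 to 0.914 in DMS and 0.664 to 0.895 in DLS of wild-type. With a linear trend on library number removed, r was -0.44 in DMS and -0.23 in DLS of Foxp2hum/hum, against 0.70 in DMS and 0.56 in DLS of wild-type. Over all 46 libraries with group means removed, r was 0.322 and rho 0.342 (permutation p = 0.0291 and 0.0246, adjusted over 14 pairs p = 0.136 and 0.115), and r was 0.433 without the 2 libraries farthest from the Adora1 median. The difference between genotypes in this relation was seen in the data and was not tested. Some others of the 14 pairs also varied widely between groups. From wild-type DMS to Foxp2hum/hum DLS, r went from 0.709 to -0.689 for Adora2a with Drd1a. For Adk with Slc29a1 it went from -0.685 to 0.539.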
